A study of Mus musculus with 6 samples.

Results

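Cytotoxic lymphocyte effector genes are the genes with which CD8+ T cells and natural killer cells kill other cells, and 10 of them were followed in bulk RNA sequencing of mouse optic nerve. They were chosen by gene symbol: Gzma, Gzmb, Gzmk, Prf1 and Nkg7 of the killing granule, the cytokine gene Ifng, the receptor genes Klrd1, Klrk1 and Ncr1, and the integrin gene Itgae. All 10 were found among the 25755 genes of the table, and the choice by symbol uses no measured value, although it was made with earlier results of these data known. The labels give 6 mice with 1 library each, 3 after sham surgery (mice 1 to 3) and 3 after optic nerve crush (ON-CR, mice 4 to 6). Both groups were NF1flox/flox;hGFAP-Cre, so the sham mice carried the same deletion: Cre driven by the human GFAP promoter removes Nf1 in neuroglial progenitors and the cells derived from them, and lymphocytes are not its target. Surgery was at 6 weeks of age and the nerves were taken at 12 weeks, given as 3 months in the labels. Mice without crush and without the Nf1 deletion are not part of these libraries. The comparison asks whether the transcripts of killer lymphocytes differ in the nerve weeks after crush.

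Killing by these cells starts when an activating receptor recognizes its target and granules are released at the contact. Perforin, encoded by Prf1, opens pores in the target membrane, and granzymes are serine proteases that pass through to start cell death. Nkg7 encodes a granule membrane protein that is needed for efficient release. Interferon gamma, encoded by Ifng, acts on macrophages, microglia and other cells through its receptor. Klrd1 encodes CD94, the partner of NKG2 receptors, Klrk1 encodes the activating receptor NKG2D, and Ncr1 encodes NKp46, a marker of natural killer and other innate lymphoid cells. Itgae encodes CD103, an integrin that binds E-cadherin and is carried by lymphocytes resident in tissue. In the healthy central nervous system such cells are rare and lie mostly at its borders.

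The sequences just upstream of 4 of the granule genes are shown because these genes are controlled in lymphocytes by T-box factors (T-bet and Eomes) and Runx3, and because their products act together in the granule. Each run is the 250 bases before the RefSeq start of the gene in GRCm38.p6, written 5' to 3' on the strand of the gene. Capitals mark AGGTGT, the core of a T-box site, and TGTGGT, a Runx site, searched on both strands, which appear as ACACCT and ACCACA on the other strand.
Nkg7, chr7:43436888-43437137, plus strand: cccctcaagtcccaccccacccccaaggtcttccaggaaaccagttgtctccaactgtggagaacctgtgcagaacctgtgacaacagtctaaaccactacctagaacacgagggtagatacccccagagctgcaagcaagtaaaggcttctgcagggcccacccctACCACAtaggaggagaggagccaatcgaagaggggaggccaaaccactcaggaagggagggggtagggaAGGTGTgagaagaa
Prf1, chr10:61297586-61297835, plus strand: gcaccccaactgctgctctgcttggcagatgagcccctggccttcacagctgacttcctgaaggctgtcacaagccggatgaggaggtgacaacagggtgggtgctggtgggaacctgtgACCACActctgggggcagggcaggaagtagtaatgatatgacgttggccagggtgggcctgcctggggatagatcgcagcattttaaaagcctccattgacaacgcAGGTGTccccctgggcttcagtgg
Gzmb, chr14:56262335-56262584, minus strand: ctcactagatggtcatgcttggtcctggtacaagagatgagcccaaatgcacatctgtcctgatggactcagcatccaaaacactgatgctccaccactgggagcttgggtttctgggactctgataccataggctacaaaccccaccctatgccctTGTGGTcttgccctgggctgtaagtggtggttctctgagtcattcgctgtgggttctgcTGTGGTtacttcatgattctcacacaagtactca
Gzmk, chr13:113180966-113181215, minus strand: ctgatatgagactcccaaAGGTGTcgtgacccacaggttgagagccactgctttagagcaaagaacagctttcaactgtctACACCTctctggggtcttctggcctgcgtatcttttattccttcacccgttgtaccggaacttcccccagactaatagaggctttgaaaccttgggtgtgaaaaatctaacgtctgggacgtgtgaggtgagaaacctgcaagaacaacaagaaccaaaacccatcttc
Nkg7 and Prf1 each held 1 T-box core and 1 Runx match, Gzmb held 2 Runx matches and no T-box core, and Gzmk held 2 T-box cores and no Runx match. An upstream sequence was found for 8 of the 10 genes, not for Klrd1 and Itgae. The T-box core was present in 4 of the 8 (Gzma, Gzmk, Prf1 and Nkg7) and in 11.8% of 32851 upstream sequences of all genes. The Runx site was present in 6 of the 8 (Gzma, Gzmb, Prf1, Nkg7, Klrk1 and Ncr1) and in 14.0% of all upstream sequences. An effector gene was counted if any of its upstream sequences held the letters, whereas the shares over all genes count single sequences. The annotation used for positions below starts Gzmk, Nkg7 and Prf1 earlier, and Gzmb later. The whole run of Gzmk lies inside the gene there. So do the end of the run of Nkg7, with its T-box core, and the last few bases of that of Prf1. A match of these letters is a description and no evidence of binding.

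The libraries held 17414035 to 23620989 estimated reads, and each ON-CR library held fewer than each sham library. Values are normalized read counts, which the authors obtained by dividing estimated counts by 1 factor per library, so that 1 read was worth 0.885 to 1.06. The myelin gene Mbp was abundant, as in optic nerve, at a mean of 389019 or more in either group. Some libraries stood apart. ON-CR mouse 6 had 83710 for the immunoglobulin gene Igkc, against 48.2 to 1602 in the other mice. The airway and gland secretory gene Bpifa1 was at 7568 in sham mouse 3 and at 4579 and 5894 in ON-CR mice 5 and 6, against 0 to 22.3 in the others. The Y-linked gene Ddx3y was at 1291 to 1645 in sham mice and at 976, 4.19 and 0 after ON-CR (mice 4, 5 and 6), and Xist was at 2.14 to 30.9 in sham mice and at 2708, 6357 and 6131 in ON-CR mice 4, 5 and 6. The library of ON-CR mouse 4 thus held Xist together with Y-linked transcripts, which goes against nerve of 1 mouse as labelled, and sex-linked expression and surgery cannot be told apart. Genes were tested with limma on log2(value + 1), and 540 of 25755 (2.10%) had an adjusted p at or under 0.05. Log2 differences below are ON-CR minus sham on this scale, which understates the change of low genes.

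None of the 10 effector genes passed the test. Their adjusted p-values by limma were 0.314 to 0.953, and 1 of the 10 (Gzmk) had an unadjusted p under 0.05, against 15.6% of all genes. In no case were the 3 ON-CR values all above or all below the 3 sham values, as they were for 21.6% of all genes. The difference was above 0 for 9 of the 10 genes, Ifng being the exception, against 52.8% of all genes, and the median over the 10 was 0.63, against 0.03 over all genes. Exact permutation tests, two-sided and with 3 mice against 3, gave p-values of 0.3 to 0.8 for the single genes, where 0.1 is the smallest that can be reached. Mice of the same group differed widely. ON-CR mouse 6 was the highest of the 6 mice for 8 of the 10 genes, as it was for 5142 of the 25755 genes tested. ON-CR mouse 5 was the lowest of the ON-CR mice for 8 of the 10, against 9291 of the 25755. Sham mouse 3 was the highest of the sham mice for 7 of the 10, against 8747 of the 25755.

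**Figure D1:**
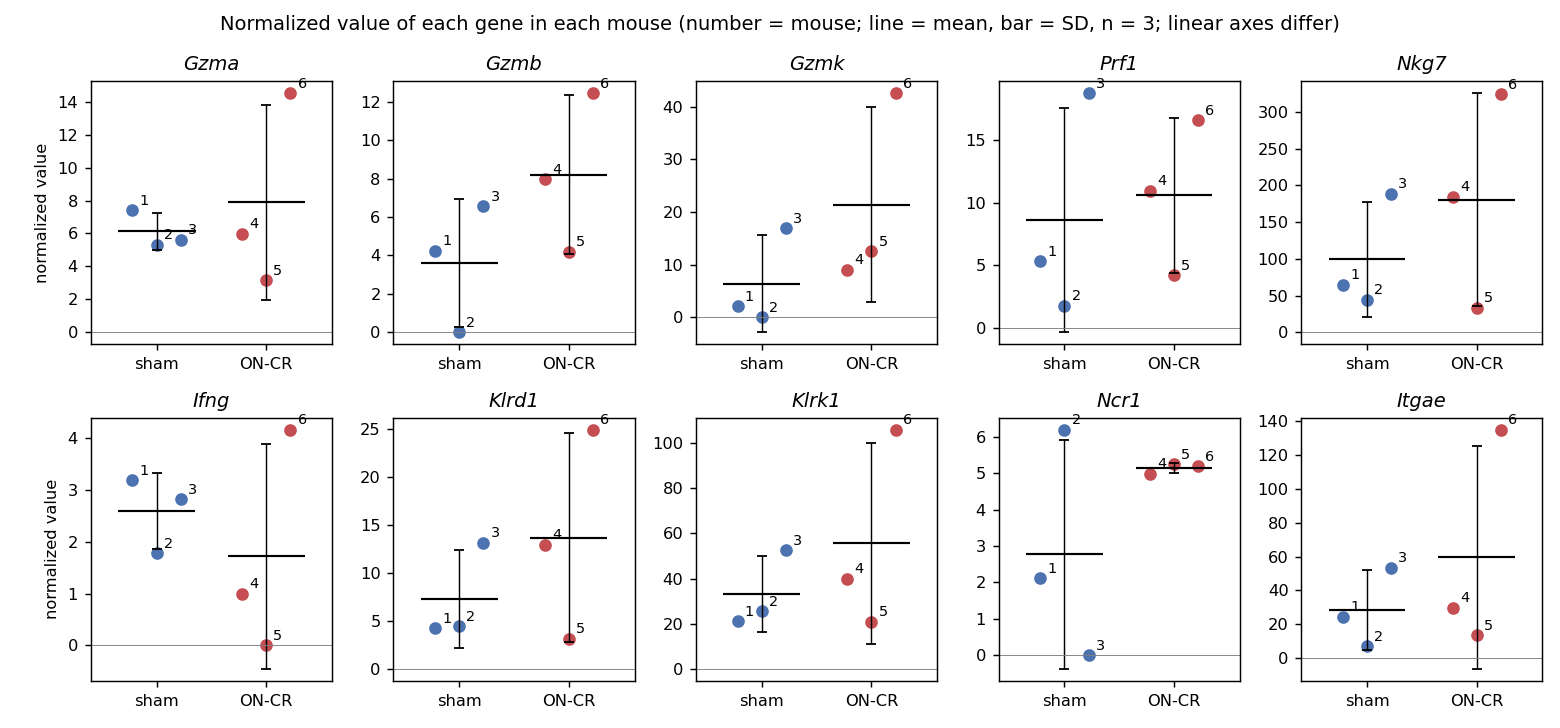
Normalized value (vertical axis, linear, a scale of its own in each panel) of the 10 effector genes in each mouse, sham in blue and ON-CR in red, with the mean as a line and the SD as a bar (n = 3 each). The groups overlap in every panel, and ON-CR mouse 6 is the highest in 8 panels.

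Among the granule genes, Nkg7 had the highest level per kilobase of exon, as given below. Nkg7 (ENSMUSG00000004612.9, chromosome 7 of GRCm38 from 43437073 to 43438249) had 64.7, 44.3 and 189 after sham surgery (mice 1, 2 and 3), and 184, 33.5 and 324 after ON-CR (mice 4, 5 and 6). ON-CR mouse 4 and sham mouse 3 were nearly level, and ON-CR mouse 5 was below every sham mouse. The means were 99.3 ± 78.2 after sham surgery, and 181 ± 145 after ON-CR (SD, n = 3 each), a log2 difference of 0.63 (95% interval -1.04 to 2.30, adjusted p = 0.749 by limma). Within the ON-CR group the highest value was 9.66 times the lowest.

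Prf1 (ENSMUSG00000037202.6, chromosome 10 from 61297833 to 61304680), the gene of perforin, had 5.31, 1.77 and 18.8 after sham surgery (mice 1, 2 and 3). Its values were 11.0, 4.19 and 16.6 after ON-CR (mice 4, 5 and 6), so that its highest value was in a sham nerve. That is 20 reads in sham mouse 3 against 16 in ON-CR mouse 6. The log2 difference of Prf1 was 0.55 (95% interval -1.18 to 2.29, adjusted p = 0.791 by limma). Without sham mouse 2 it was -0.12.

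With all mice, Gzmk had the largest difference of the 10 genes. This granzyme, a protease with trypsin-like activity that is typical of memory CD8+ T cells, is encoded on chromosome 13 from 113171608 to 113225908 (ENSMUSG00000042385.14), and Esm1 lies within it on the other strand without sharing exon bases. Gzmk had 2.12, 0 and 16.9 after sham surgery (mice 1, 2 and 3), and 8.97, 12.6 and 42.6 after ON-CR (mice 4, 5 and 6). Sham mouse 3 lay above ON-CR mice 4 and 5, and sham mice 1 and 2 lay below all ON-CR mice. These values rest on 20 reads in the sham libraries together and 62 in the ON-CR libraries. The log2 difference of Gzmk was 2.24 (95% interval 0.03 to 4.45, adjusted p = 0.314 by limma). It was 1.27 without sham mouse 2, where that of Ncr1 was larger (1.80), and 3.35 without sham mouse 3.

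Gzmb, the granzyme that cleaves caspases, and Gzma, which kills without caspases, were close to the limit of detection. Gzmb (ENSMUSG00000015437.5, chromosome 14 from 56258838 to 56262260) had 4.24, 0 and 6.57 after sham surgery (mice 1, 2 and 3), and 7.98, 4.19 and 12.5 after ON-CR (mice 4, 5 and 6). ON-CR mouse 5 was just under sham mouse 1, and the log2 difference was 1.33 (95% interval -0.52 to 3.17, adjusted p = 0.488 by limma). Gzma (ENSMUSG00000023132.8, chromosome 13 from 113093825 to 113100981) had 7.43, 5.31 and 5.63 after sham surgery (mice 1, 2 and 3), and 5.98, 3.15 and 14.5 after ON-CR (mice 4, 5 and 6). Its lowest and its highest value were both in the ON-CR group, and the log2 difference was 0.12 (95% interval -1.26 to 1.50, adjusted p = 0.953 by limma). Gzmb belongs to a cluster of similar granzyme genes, and the way in which reads common to them were counted is not given in the sources used here.

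Ifng was barely detected. It had 3, 2 and 3 reads after sham surgery (mice 1, 2 and 3), and 1, 0 and 4 reads after ON-CR (mice 4, 5 and 6), so 5 of the 6 libraries were at or under 3 reads. The sum of 8 reads in the sham libraries has an exact Poisson 95% interval of 3.45 to 15.8, and the sum of 5 in the ON-CR libraries 1.62 to 11.7, from counting error only. The log2 difference of Ifng was -0.70 (95% interval -2.48 to 1.07, adjusted p = 0.732 by limma). Ifng (ENSMUSG00000055170.4) lies on chromosome 10 from 118441046 to 118445892 and shares 336 exon bases with Gm49751 on the same strand, which was not analysed here.

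Of the receptor genes, Klrk1 rested on the most reads and Klrd1 followed the pattern of Nkg7. Klrk1 (ENSMUSG00000030149.15, chromosome 6 from 129610323 to 129623864) had 21.2, 25.7 and 52.6 after sham surgery (mice 1, 2 and 3), and 39.9, 21.0 and 106 after ON-CR (mice 4, 5 and 6). Its lowest value was in ON-CR mouse 5, slightly under sham mouse 1, and the log2 difference was 0.53 (95% interval -0.72 to 1.78, adjusted p = 0.708 by limma). Klrd1 (ENSMUSG00000030165.16, chromosome 6 from 129591782 to 129598775) had 4.24, 4.43 and 13.1 after sham surgery (mice 1, 2 and 3), and 13.0, 3.15 and 24.9 after ON-CR (mice 4, 5 and 6). As for Nkg7, sham mouse 3 and ON-CR mouse 4 were nearly level, and the log2 difference was 0.63 (95% interval -1.02 to 2.28, adjusted p = 0.743 by limma). Klrd1 rested on 3 to 24 reads per library.

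Ncr1, which rested on few reads, did not follow this pattern. Ncr1 (ENSMUSG00000062524.4, chromosome 7 from 4337724 to 4345164) had 2.12, 6.20 and 0 after sham surgery (mice 1, 2 and 3), with its only 0 in the sham nerve that was high for Nkg7, Prf1 and Klrd1. In ON-CR mice 4, 5 and 6 it had 4.99, 5.24 and 5.19, or 5 reads in each library. The sum of 9 reads in the sham libraries has an exact Poisson 95% interval of 4.12 to 17.1, from counting error only. That of 15 reads in the ON-CR libraries has 8.40 to 24.7, so the intervals overlap. The log2 difference of Ncr1 was 1.12 (95% interval -0.63 to 2.88, adjusted p = 0.545 by limma). ON-CR mouse 6 had 3.38 to 9.90 times the value of ON-CR mouse 5 for Gzmk, Nkg7, Klrd1, Klrk1, Prf1 and Itgae. For Gzma and Gzmb, also with few reads, it had 4.62 and 2.97 times that value, and for Ncr1 0.99 times. Ifng, at 0 in ON-CR mouse 5, gave no ratio.

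Itgae, the gene of the tissue residence integrin CD103, spread more widely than Nkg7 in sham nerves and about as widely after ON-CR. Sham mouse 3 had 7.56 times the value of sham mouse 2 for Itgae and 4.26 times for Nkg7. ON-CR mouse 6 had 9.90 and 9.66 times the value of ON-CR mouse 5. Itgae (ENSMUSG00000005947.11, chromosome 11 from 73090583 to 73147446) had 24.4, 7.08 and 53.5 after sham surgery (mice 1, 2 and 3), and 29.9, 13.6 and 135 after ON-CR (mice 4, 5 and 6). ON-CR mouse 5 lay between sham mice 2 and 1, and the log2 difference was 0.82 (95% interval -1.05 to 2.69, adjusted p = 0.697 by limma). Haspin lies within Itgae on the other strand without sharing exon bases.

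The levels of the effector genes were compared with each other only per kilobase of merged exons. In sham nerves Nkg7 was at 109 ± 85.6 per kilobase (SD, n = 3) and its lowest sham value, 48.4, was above the highest sham value of every other effector gene. The order that followed was Itgae (6.19 per kilobase), Gzma (6.09), Klrd1 (5.68), Klrk1 (4.62), Gzmk (4.57), Prf1 (3.34), Gzmb (2.51), Ifng (2.00) and Ncr1 (1.80). Each of these overlapped its neighbours in the order over the 3 sham mice. The level of Klrk1 per kilobase is a low estimate, since all annotated exons of the gene, 7183 bases, were counted as its length. For comparison, the T cell receptor component Cd3e was at 10.8 and the CD8 chain Cd8b1 at 28.4 per kilobase in sham nerves.

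**Figure D2:**
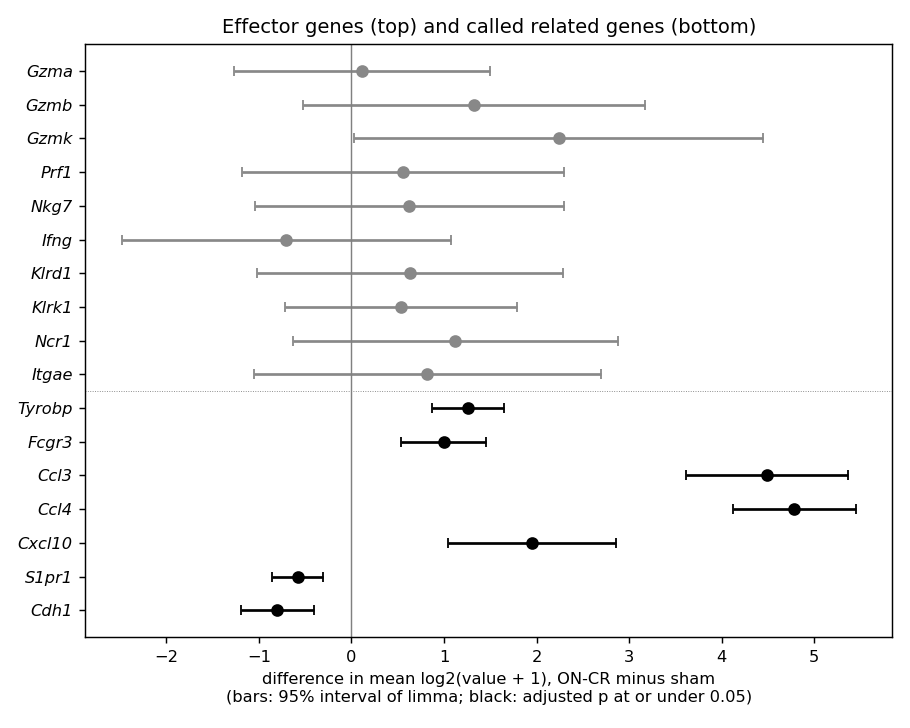
Difference in mean log2(value + 1), ON-CR minus sham (horizontal axis), with the 95% interval from limma, for the 10 effector genes (above the dotted line) and the 7 related genes that passed the test (below it). The intervals of 9 effector genes include 0, that of Gzmk begins at 0.03 with an adjusted p of 0.314, and Ccl3 and Ccl4 lie above 4.

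The intervals were wide. The upper limit of the log2 difference was between 1.07 (Ifng) and 4.45 (Gzmk), and the lower limit between -2.48 (Ifng) and 0.03 (Gzmk). A difference of 1 on this scale in either direction was within the interval of Nkg7, Prf1, Gzma, Ifng, Klrd1 and Itgae.

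Summed over the 10 genes, the normalized value was 139, 96.5 and 359 after sham surgery (mice 1, 2 and 3), and 307, 100.6 and 685 after ON-CR (mice 4, 5 and 6). Nkg7 made up 33.3% to 60.1% of this sum. The mean of the sum was 198 ± 141 after sham surgery, and 364 ± 297 after ON-CR (SD, n = 3 each), and the highest mouse had 3.72 times the lowest in the sham group and 6.81 times in the ON-CR group. On the log2 scale the groups differed by 0.71 with all mice, by 0.06 without ON-CR mouse 6, by 0.64 without ON-CR mouse 4, by 1.44 without ON-CR mouse 5 and by 1.25 without sham mouse 3. In whole nerves, fewer cells of a type and less RNA per cell cannot be told apart.

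The T cell markers moved with the effector genes from mouse to mouse. The 19 markers, among them the CD3 chains, the T cell receptor constant genes, Cd4, Cd8a and Cd8b1, summed to 424, 465 and 1148 after sham surgery (mice 1, 2 and 3), and to 865, 444 and 2692 after ON-CR (mice 4, 5 and 6). ON-CR mouse 6 was the highest for 18 of the 19, and sham mouse 3 was the highest sham mouse for 19 of 19. The sum of the effector genes was 20.8% to 32.8% of the sum of the T cell markers in sham mice and 22.7% to 35.5% in ON-CR mice, with means of 28.3% ± 6.53 and 27.9% ± 6.74 (SD, n = 3 each). So the effector sum spread 7.10-fold over the 6 mice, and its ratio to the T cell markers 1.71-fold. None of the 19 markers passed the test by limma, and 1 had an unadjusted p under 0.05.

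**Figure D3:**
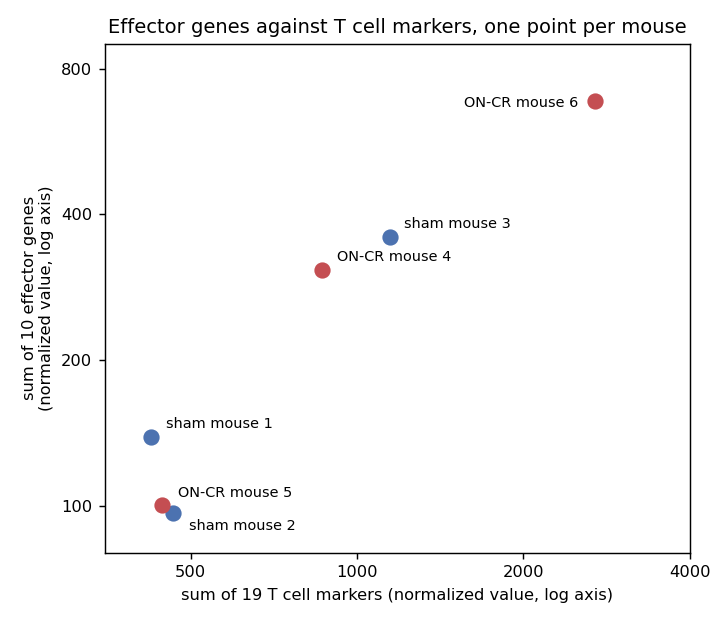
Sum of the 10 effector genes (vertical, log axis) against the sum of the 19 T cell markers (horizontal, log axis), both in normalized values, with a point for each mouse (sham blue, ON-CR red). Sham mice 1 and 2 and ON-CR mouse 5 lie together at the lower left, sham mouse 3 and ON-CR mouse 4 in the middle and ON-CR mouse 6 at the upper right.

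Cd8a and Cd8b1, which encode the CD8 chains of cytotoxic T cells, were likewise highest in ON-CR mouse 6, sham mouse 3 and ON-CR mouse 4, and lower in the other mice. Cd8b1 had 22.3, 19.5 and 84.5 after sham surgery (mice 1, 2 and 3), and 52.8, 12.6 and 112 after ON-CR (mice 4, 5 and 6). Cd4, the coreceptor of helper T cells, had 32.9, 2.66 and 46.0 in sham mice and 32.9, 23.1 and 157 in ON-CR mice in the same order. Trdc, the constant gene of the gamma delta T cell receptor, was the only marker whose highest value was not in ON-CR mouse 6. It had 20.8 there and 62.9 in ON-CR mouse 5, against 21.2 to 28.9 in the other mice.

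Markers of other cells are given for the same mice, and their part in the spread of the effector genes was not tested. The 8 B and plasma cell markers summed to 736 to 2430 in sham mice and to 1440, 394 and 98667 after ON-CR (mice 4, 5 and 6). The 10 epithelial and gland markers summed to 289, 181 and 8425 after sham surgery (mice 1, 2 and 3), and to 38.9, 5761 and 6305 after ON-CR (mice 4, 5 and 6). The 8 microglia and macrophage markers summed to 10477 to 13344 after sham surgery, and 12545 to 19300 after ON-CR, and Aif1 and Cd68 passed the test, both higher. The 6 neutrophil markers summed to 78.8 to 368 after sham surgery, and 184 to 314 after ON-CR, and the 5 red cell markers to 269397 to 509290 and 136974 to 378023. None of the neutrophil, red cell, B cell or epithelial markers passed the test by limma, and none had an unadjusted p under 0.05.

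**Figure D4:**
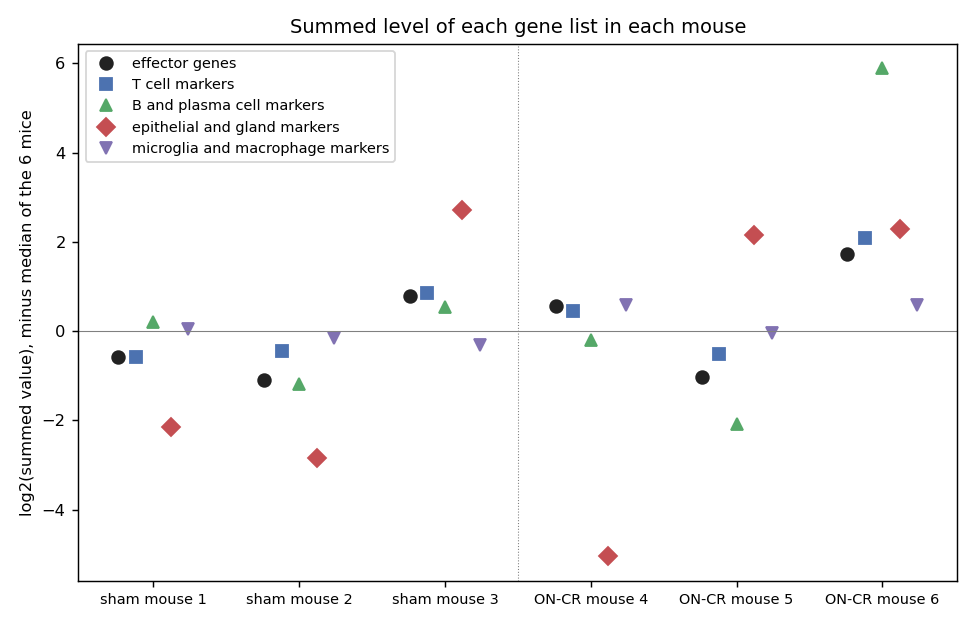
Summed normalized value of 5 gene lists in each mouse, as log2 minus the median of the 6 mice (vertical axis), with the sham mice left of the dotted line. The effector genes (black) and T cell markers (blue) stay close to each other in each mouse, the B and plasma cell markers (green) stand out in ON-CR mouse 6 and the epithelial and gland markers (red) in sham mouse 3 and ON-CR mice 5 and 6.

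Related genes were read from 7 lists of 80 genes. Beside granule, receptor and transcription factor genes of killer lymphocytes, they cover homing, chemokines, ligands and targets, and interferon gamma response. Many of these genes are also used by other cells. Of the 80 genes, 71 were in the table. Of these, 5 were higher and 2 lower after ON-CR with an adjusted p at or under 0.05, where 0.971% and 1.13% of all genes were. The median log2 difference was 0.55 over the 71 genes and 0.03 over all genes. Of 13 further granule and death ligand genes none passed the test, and 3 had an unadjusted p under 0.05 (Ctsc, Rab27a and Fasl). With scaling to equal totals, with voom and without ON-CR mouse 5, 1 passed. In 2 of the 13 the groups did not overlap, against 21.6% of all genes. These were Ctsc (782 to 861 in sham mice, 1061 to 1919 after ON-CR, adjusted p = 0.0670 by limma) and the granzyme gene Gzmm. Gzmm had 2.12 to 3.76 and 5.19 to 7.34 (adjusted p = 0.458 by limma) and was named after its values were seen. Lamp1, Vamp8 and Srgn, which serve granules and lysosomes of many cell types, had log2 differences of -0.14, 0.04 and 0.14 (adjusted p = 0.640, 0.933 and 0.810 by limma). Fasl, the death ligand of killer cells, had 1.06, 3.54 and 8.45 in sham mice and 17.9, 5.24 and 28.0 in ON-CR mice (adjusted p = 0.298 by limma) and was named after its values were seen. Gzmc to Gzmg and Gzmn were not analysed here.

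Of 14 other receptor and adaptor genes, 2 passed the test, both higher. Tyrobp, which encodes DAP12, the signalling adaptor of many activating receptors of natural killer cells and also of microglia, had 784, 656 and 625 after sham surgery, and 1603, 1313 and 2109 after ON-CR. All ON-CR values were above all sham values, and the log2 difference was 1.26 ± 0.17 (standard error; limma, adjusted p = 0.00636). The adjusted p of Tyrobp was 0.0529 without sham mouse 2 and 0.0518 without ON-CR mouse 6. Fcgr3, which encodes an IgG receptor of natural killer cells and macrophages, had 843, 718 and 770 after sham surgery, and 1564, 1109 and 2148 after ON-CR (log2 difference 1.00, standard error 0.21, adjusted p = 0.0393 by limma). Its adjusted p was above 0.05 when any of sham mice 1, 2 and 3 or ON-CR mice 4 and 6 was left out, from 0.0800 to 0.197. Of the 8 microglia and macrophage markers, 6 had log2 differences above 0, and Aif1 (1.22) and Cd68 (1.80) passed the test (limma, adjusted p = 0.0260 and 0.00128). Csf1r had 0.33, and the microglial genes P2ry12 and Tmem119 had -0.35 and -0.27, which did not pass. The part of these cells in Tyrobp and Fcgr3 was not tested. Slamf7, a receptor of natural killer and other immune cells, had a log2 difference of 0.99 (adjusted p = 0.505 by limma).

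Hcst, the gene of DAP10, through which NKG2D signals in mouse and human lymphocytes, was named after its values were seen. It had 12.7, 10.6 and 14.1 in sham mice and 44.9, 27.3 and 47.8 in ON-CR mice. The ON-CR values were all above the sham values, but the adjusted p was 0.0750 by limma (log2 difference 1.57). Its receptor gene Klrk1 overlapped between the groups, with ON-CR mouse 5 below every sham mouse. For Hcst, as for Tyrobp, ON-CR mouse 5 was above every sham mouse. The part of other cells in Hcst was not tested.

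None of the 7 transcription factors of killer lymphocytes passed the test by limma, and none had an unadjusted p under 0.05. Id2, Zeb2 and Tox, which other cells of the nerve also use, had log2 differences of -0.24, -0.16 and -0.34 (adjusted p = 0.633, 0.655 and 0.562 by limma). Tbx21 and Eomes, which encode the T-box factors T-bet and Eomes, had 0 to 5.19 and 0 to 15.6 over the 6 mice, each with its highest value in ON-CR mouse 6.

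Of 8 residence and homing genes, 1 passed the test. S1pr1, whose receptor lets lymphocytes leave lymphoid tissue and which astrocytes and endothelium also express, had 4548, 4599 and 3944 after sham surgery, and 3208, 3041 and 2540 after ON-CR (log2 difference -0.58, adjusted p = 0.0436 by limma). The adjusted p was 0.0758 with scaling to equal totals, and it was above 0.05 when any of sham mice 1, 2 and 3 or ON-CR mice 4 and 6 was left out, from 0.0548 to 0.223. Itga1 and Cxcr6, markers of resident lymphocytes of which the first is also made by vascular cells, had log2 differences of 0.14 and 0.63 (adjusted p = 0.783 and 0.523 by limma).

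The 4 chemokine genes shared with killer lymphocytes split into 2 patterns. Ccl3 had 17.0, 5.31 and 11.3 after sham surgery, and 295, 195 and 270 after ON-CR, and Ccl4 had 12.7, 11.5 and 19.7 after sham surgery, and 396, 324 and 575 after ON-CR. Both were far above the sham level in every ON-CR mouse, ON-CR mouse 5 included, with log2 differences of 4.49 and 4.78 (standard errors 0.39 and 0.30, adjusted p = 0.000712 and 0.000136 by limma). Both chemokines attract T cells and monocytes and are made by microglia and macrophages as well as by lymphocytes. Ccl5, a chemokine of cytotoxic lymphocytes and of microglia, had 195, 185 and 617 after sham surgery, and 342, 148 and 1444 after ON-CR. As for the effector sum, ON-CR mouse 6 and sham mouse 3 were the highest, with a log2 difference of 0.57 (95% interval -1.01 to 2.15, adjusted p = 0.761 by limma). Xcl1, a chemokine of natural killer and CD8+ T cells, had 1.06, 4.43 and 2.82 in sham mice and 8.97, 3.15 and 38.4 in ON-CR mice (adjusted p = 0.349 by limma).

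Among 15 ligands and targets of the effector genes, 1 passed the test. Cdh1, which encodes E-cadherin, the ligand of CD103, had 2376, 1545 and 2279 after sham surgery, and 1280, 989 and 1250 after ON-CR (log2 difference -0.80, adjusted p = 0.0498 by limma). This call was at the threshold: it was at or under 0.05 with a pseudocount of 2, in a robust fit and without sham mouse 2, and above it in the other 12 settings, up to 0.594. H2-T23, which encodes Qa-1, the ligand of CD94 with NKG2A, and Jak1, a kinase of the interferon gamma receptor, had log2 differences of 0.71 and 0.02 (adjusted p = 0.320 and 0.947 by limma). The receptor genes Ifngr1 and Ifngr2 had log2 differences of -0.04 and -0.12 (adjusted p = 0.939 and 0.768 by limma).

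Of 10 genes induced by interferon gamma, 1 passed the test. Cxcl10, which encodes a chemokine for T cells and is also induced by type I interferon, had 173, 65.5 and 196 after sham surgery, and 458, 352 and 812 after ON-CR (log2 difference 1.95, standard error 0.41, adjusted p = 0.0407 by limma). Its adjusted p was 0.168 in a robust fit and above 0.05 when any of sham mice 1, 2 and 3 or ON-CR mice 4 and 6 was left out, from 0.0670 to 0.237. Irgm1, Gbp2 and Gbp3, which encode GTPases of cell defence, had log2 differences of 0.68, 0.96 and -0.37 (adjusted p = 0.402, 0.179 and 0.646 by limma). Cxcl9, which is induced by interferon gamma above all and was named after its values were seen, had 8.49, 3.54 and 78.9 in sham mice and 63.8, 17.8 and 514 in ON-CR mice, again highest in ON-CR mouse 6 and, among sham mice, in mouse 3. ON-CR mouse 6 was the highest mouse for 9 of the 10 genes of this list.

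The genes whose profile over the 6 mice was most like that of the effector sum, among 19645 genes with a mean value of at least 10, were Igkv6-20, Zfp277, Tma16, Rplp0-ps1 and Plbd1. Their Pearson r with the log2 effector sum was 0.997, 0.996, 0.987, 0.984 and 0.984 over 6 mice, as a description across libraries that also share their depth and composition. Igkv6-20, an immunoglobulin variable gene, had 2.12, 0 and 31.9 in sham mice and 15.0, 0 and 189 in ON-CR mice. Zfp277 spanned only 636 to 682. Of the effector genes themselves, Nkg7, which dominates the sum, and Klrd1 had an r of 0.98 with it, and Ncr1 had -0.25.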

How the data were processed

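The data are bulk RNA sequencing of optic nerves from 6 perfused mice, grouped by the sample labels as sham (3) and ON-CR (3). Libraries were made from 10 ng of total RNA with the SMARTer Ultra Low RNA kit. The authors aligned and quantified reads with DRAGEN, applied the mm10 Ensembl annotation and median-normalized gene counts in Partek Flow 10.0. The values the authors deposited are normalized signal: each gene's estimated count over 1 factor for its library. Between 70.0% and 72.0% of values under 100 reads were whole multiples (within 0.02 reads) of the value of 1 read, which served to estimate reads and depth. Because most but not all were whole, no count model like DESeq2, which the study's methods used, was run. The voom alternative named below did take the estimated reads as input, scaled by their library totals.

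All 25755 genes were tested, without a filter, on the log2(value + 1) scale. The tool was limma (version 3.58.1, R 4.3.3), with its trend option, no covariate and p-values adjusted by Benjamini-Hochberg. The script was checked on simulated data with changes planted only in genes of higher mean, so the check does not cover most effector genes. No set test was run. Exact permutation tests were two-sided. P-values measure the spread between 3 libraries per group, taken as 3 mice as labelled. For the library of ON-CR mouse 4, the sex-linked transcripts given above go against 1 mouse. The paper's methods for RNA extraction and qPCR give 2 mice per sample, and those for sequencing give no number of mice per library. A floor of 3 reads, and Poisson intervals, cover counting error only. Gene positions and exon lengths are from GENCODE M21 (GRCm38), and upstream sequences from RefSeq (GRCm38.p6). Whether counting used strand is not given in the sources used here. The effector genes, the related lists and the marker lists were chosen with earlier results of these data known. Named genes are the 10 effector genes, the called genes and the 3 genes of highest mean value in each related list, the 5 genes most alike in profile, and markers. Others are said to be named after their values were seen, as were Tbx21, Eomes, Ifngr1, Ifngr2 and the genes of single marker lists. The alternatives were pseudocounts 0.5 and 2, a filter, 2 scalings, voom with sample quality weights, a robust fit and leaving out each mouse. Fits without the libraries with gland transcripts, and without ON-CR mice 5 and 6, were added after the data were seen. Some results for single genes are not reported here.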

Additional observations from a re-analysis of the deposited data

How the results depend on the processing

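None of the 10 effector genes passed the test by limma in any of the 15 other settings, with adjusted p-values from 0.128 upward. Without ON-CR mouse 6 the sign turned for Gzma (-0.39), Nkg7 (-0.046), Klrk1 (-0.080) and Itgae (-0.073), and without sham mouse 2 for Prf1 (-0.12). The highest values with 1 mouse left out were 0.56 (Gzma), 1.57 (Nkg7), 1.06 (Klrk1) and 1.54 (Itgae), without ON-CR mouse 5, and 1.30 (Prf1), without sham mouse 3. Gzma was also below 0 with sham mice 1 and 2 and ON-CR mouse 4 only (-0.063) and with ON-CR mouse 4 alone against the sham mice (-0.017). Gzmb, Gzmk, Klrd1 and Ncr1 stayed above 0 and Ifng below it wherever they were fitted, but their size moved: Klrd1 was 0.043 without ON-CR mouse 6, Gzmb 0.44 and Gzmk 1.27 without sham mouse 2, Ncr1 0.37 without sham mouse 3 and Ifng -0.14 without ON-CR mouse 5. At the other end, with 1 mouse left out, they reached 1.37 (Klrd1), 1.90 (Gzmb), 3.35 (Gzmk), 1.80 (Ncr1) and -1.32 (Ifng), and the filter on 10 reads left 6 of the 10 genes. The log2 difference of the summed effector genes was 0.06 to 1.44 when each mouse was left out. The count over all genes, 540, was 861 with voom, 67 to 854 when each mouse was left out (67 without ON-CR mouse 6), 0 with sham mice 1 and 2 and ON-CR mouse 4, and 1 with ON-CR mouse 4 against the sham mice, where a lone ON-CR library is assumed to vary like the rest. Of the related genes, 7 were called, 2 to 9 when each mouse was left out (2 without ON-CR mouse 6, 3 without ON-CR mouse 4 or any 1 sham mouse), and 0 in both fits with ON-CR mouse 4 alone. Ccl3 and Ccl4 passed in 13 of 15 settings, the exceptions being these 2 fits. Scaling to equal totals moved the median log2 difference of all genes from 0.03 to 0.15. It moved the split of calls from 250 higher and 290 lower to 421 and 195. The voom fit, which also scales by library totals, gave 614 and 247 with a median of 0.15. Relative to the median of all genes, the effector sum differed by 0.68 as deposited and by 0.69 under equal totals. The causes were not tested. No paired analysis was possible because the groups share no mouse number. Ifng, Ncr1, Gzma and Gzmb rest on a few reads per library, and their standard errors were 0.62 to 0.83, against 0.75 for Nkg7 and 0.84 for Itgae. Prf1 and Klrd1 also had few reads in some libraries, down to 2 and 3.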
